A study of Homo sapiens with 6 samples.

Results

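The cannabinoid receptor gene CNR1 and 9 other genes of the endocannabinoid system were read in sorted cells of a colorectal cancer line. Every probe set (a group of array probes summed into 1 value) carrying one of these 10 gene symbols alone in the platform annotation was taken, which gave 26 of the 54613 probe sets that were not controls. Dim probe sets, those with a mean log2 intensity below 4.41, the 30th percentile of all, were kept, and 3 of the 26 were dim. The genes are CNR1, CNR2, GPR55, NAPEPLD, PLAAT3, DAGLA, DAGLB, FAAH, MGLL and ABHD6, 10 of 19775 genes with such a probe set. They were chosen on the measured difference between the sorts, in which CNR1 and PLAAT3 stood high, together with the genes of their pathway, so that difference is given as a description, and calls from the fit to all probe sets are counted but not read as support. Total RNA came from untreated COLO-320DM cells, an established line from a human colorectal carcinoma, grown on dishes until nearly confluent and sorted by CD44, a hyaluronan receptor used as a marker of colorectal cancer stem cells. There were 3 CD44-positive and 3 CD44-negative arrays, and both sorts carry the replicate numbers 1, 2 and 3. The study asked which genes differ between the sorts, and it concerned the action of tankyrase inhibitors on the CD44-positive cells, but no array here came from treated cells. Whether replicates came from separate cultures was not stated, so the spread between them may be technical.

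Endocannabinoids are lipid messengers that cells make on demand from membrane phospholipids. Arachidonoylglycerol is released by the diacylglycerol lipases DAGLA and DAGLB, and anandamide can be released by the phospholipase NAPEPLD, while PLAAT3 belongs to a family of phospholipases and acyltransferases, some of which make the anandamide precursor. Both messengers act on the G-protein-coupled receptors CB1, from CNR1, and CB2, from CNR2, and the receptor GPR55 responds to a related lysophospholipid. FAAH breaks down anandamide, and MGLL and ABHD6 break down arachidonoylglycerol. In the gut CB1 is best known from enteric neurons and the epithelium, where it slows motility and secretion.

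The promoters of CNR1 and PLAAT3, the members with the widest separation of the sorts, are shown as RefSeq gives them (GRCh38.p14), each 300 bases from 250 before to 50 after a start, read 5′ to 3′ along the gene. Capitals mark CTTTG or its reverse complement CAAAG, the core that TCF/LEF factors of the Wnt pathway bind, since the study concerns that pathway. CNR1 has 6 starts in the RefSeq windows, and the first and last of them in the direction of transcription are given, at chr6:88167300-88167599 and chr6:88145288-88145587, both on the minus strand. The PLAAT3 window lies at chr11:63614388-63614687 on the minus strand.
CNR1, first start: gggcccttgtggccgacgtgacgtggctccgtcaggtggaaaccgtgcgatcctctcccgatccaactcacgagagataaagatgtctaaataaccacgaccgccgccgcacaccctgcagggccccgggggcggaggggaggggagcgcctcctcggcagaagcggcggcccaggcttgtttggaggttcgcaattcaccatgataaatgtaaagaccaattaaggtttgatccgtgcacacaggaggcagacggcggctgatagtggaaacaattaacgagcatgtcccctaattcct
CNR1, last start: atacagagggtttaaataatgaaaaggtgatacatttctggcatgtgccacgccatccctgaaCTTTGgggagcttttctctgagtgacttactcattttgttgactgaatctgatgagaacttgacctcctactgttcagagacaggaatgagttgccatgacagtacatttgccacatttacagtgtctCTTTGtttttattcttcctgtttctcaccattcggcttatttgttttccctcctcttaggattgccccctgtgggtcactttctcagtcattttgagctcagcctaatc
PLAAT3: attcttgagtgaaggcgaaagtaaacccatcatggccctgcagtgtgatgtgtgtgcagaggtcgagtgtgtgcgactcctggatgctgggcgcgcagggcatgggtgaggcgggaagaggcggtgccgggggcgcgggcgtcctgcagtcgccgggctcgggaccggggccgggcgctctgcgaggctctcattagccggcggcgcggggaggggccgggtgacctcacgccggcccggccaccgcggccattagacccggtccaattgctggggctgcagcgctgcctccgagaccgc

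The core occurred 2 times in the window of the last CNR1 start, and in neither of the other windows shown. It was present in 2 of the 6 CNR1 windows and in 0 of 2 PLAAT3 windows. Across all 35116 windows of this length 47.5% held it on either strand, and across the 16 windows of the 8 members found there 31.2%. Such a match is a description of letters, and its absence says nothing of the factor.

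CNR1 stood higher in the CD44-positive cells on 3 of its 4 probe sets, with no overlap between the groups, a separation that 3.41% of all probe sets showed. On the brightest, 213436_at, log2 intensity was 7.24, 7.28 and 6.42 in the CD44-positive arrays, against 5.91, 6.11 and 5.75 in the CD44-negative arrays. Every CD44-positive array lay above every CD44-negative one, and the CD44-positive array of replicate 3 was the nearest to them. Group levels were 6.98 ± 0.49 and 5.92 ± 0.18 (log2, SD, n = 3 each), a difference of 1.06 ± 0.22 (SE; 95% interval 0.55 to 1.56), or 2.08-fold. Each difference below is the CD44-positive mean less the CD44-negative mean (log2). Its interval comes from limma's fit to all probe sets, without the replicate number unless a block is named. By same-numbered arrays the CNR1 difference was 1.34, 1.17 and 0.67 for replicates 1, 2 and 3. With the replicate number as a block in the fit, its 95% interval was 0.77 to 1.35. A larger positive difference was found in 38 of the 54613 probe sets, 7 of them of CD44 itself. As in any bulk sample, more cells that express a gene and more RNA per cell cannot be told apart.

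The other CNR1 probe sets were dimmer and did not all show this. Probe set 1560225_at read 4.70, 5.30 and 4.86 in the CD44-positive arrays, against 4.26, 4.44 and 4.56 in the CD44-negative arrays. Its groups were separate, with a difference of 0.54 ± 0.16 (SE; 95% interval 0.17 to 0.90). Probe set 208243_s_at read 5.40, 5.12 and 4.97 in the CD44-positive arrays, against 4.92, 4.95 and 4.66 in the CD44-negative arrays. Here too the groups did not overlap, although the lowest CD44-positive value was close to the highest CD44-negative one, and the difference was 0.32 ± 0.14 (SE; 95% interval 0.011 to 0.63). Probe set 207940_x_at, whose suffix marks probes that may also bind other transcripts, read 5.55, 5.93 and 5.46 in the CD44-positive arrays, against 5.69, 5.81 and 5.64 in the CD44-negative arrays. Its groups overlapped, with a difference of -0.067 (95% interval -0.37 to 0.24). The 4 probe sets thus ranged from -0.067 to 1.06, and which CNR1 transcripts each one reads was not analysed here.

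**Figure D1:**
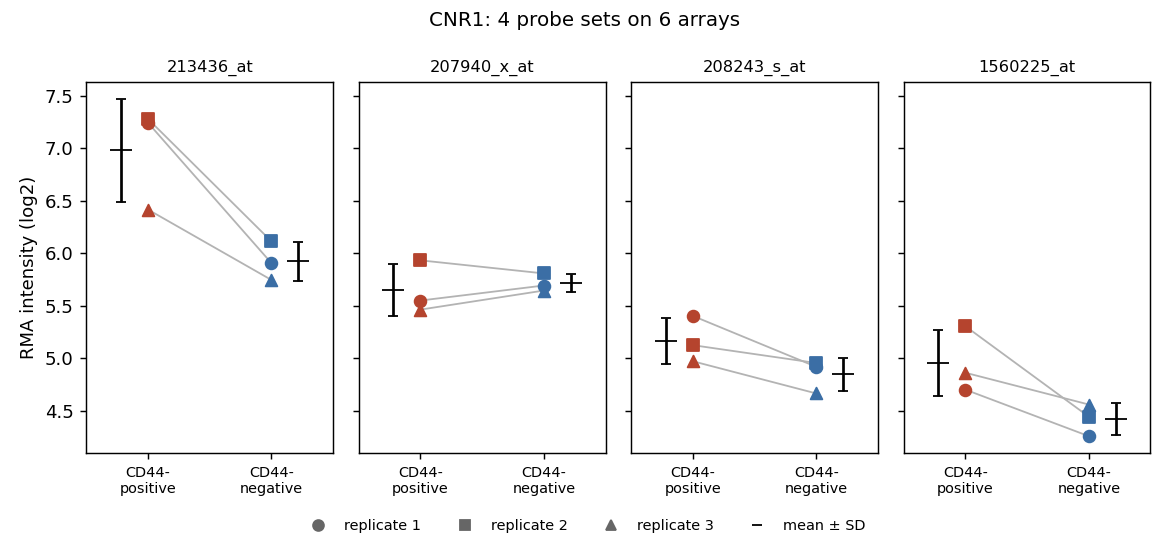
RMA intensity (log2) of the 4 CNR1 probe sets on each array, with CD44-positive arrays left of CD44-negative arrays, grey lines joining the same replicate number, and bars for mean ± SD (n = 3). The groups are apart on 213436_at, 208243_s_at and 1560225_at and overlap on 207940_x_at.

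The sort marker and markers of cell types were read beside these values. CD44 on its brightest probe set was 7.70 ± 0.52 against 5.23 ± 0.22 (log2, SD, n = 3 each), with the CD44-positive array of replicate 3 the lowest of its group at 7.11, as for CNR1. Median intensity was 44.8 to 46.5 and log2 values correlated between arrays at 0.991 to 0.997. Of 7 colonic epithelial markers 2 had the higher mean in CD44-positive cells, with overlapping sums of intensity of 4422 to 4946 in the CD44-positive arrays and 4471 to 5360 in the CD44-negative arrays. KRT20, a keratin of differentiated colonocytes, was 6.97 ± 0.28 against 6.34 ± 0.25, and EPCAM was 4.40 ± 0.29 against 4.87 ± 0.12; in both the groups were separate, KRT20 upwards by 0.63 and EPCAM downwards, at a difference of -0.47. EPCAM was not dim over all arrays but lay near the limit of 4.41, with its CD44-positive mean just below it. CDH1 was dim, at 4.07 and 4.17, while CDX2 stood at 11.61 and 11.69 and KRT18 at 9.95 and 10.05. Of 7 neuroendocrine or neuronal markers 6 were higher in the CD44-positive cells, with summed intensities of 3654 to 4126 in the CD44-positive arrays and 3147 to 3329 in the CD44-negative arrays; CHGA was dim. NEFL, a neurofilament gene and the brightest of them, stood at 11.10 ± 0.012 against 10.61 ± 0.13. Such sums are weighted to the brightest genes, and TUBB3, the next brightest, overlapped at 10.58 and 10.52. Only NEFL and SYP, at 5.56 against 5.39, had separate groups. ENO2 and CHGB varied with the replicate number (limma F test, adjusted p = 0.0024 and 0.029). Their groups overlapped, with same-numbered pair differences of 0.78, 0.22 and 0.45 in ENO2 and 0.32, 0.22 and -0.032 in CHGB. Of 7 fibroblast markers 4 were higher and 3 lower, with overlapping sums of 1453 to 3629 in the CD44-positive arrays and 1128 to 2266 in the CD44-negative arrays. COL3A1, the brightest of them, was 11.09 ± 0.92 against 10.31 ± 0.75. Its groups overlapped, but it was higher in each same-numbered pair, by 1.02, 0.57 and 0.75. It also varied with the replicate number (limma F test, adjusted p = 0.0045). The groups were separate upwards in LUM, dim on average at 4.55 against 2.53, and in COL1A2, at 5.40 against 5.09. They were separate downwards in COL1A1, at 7.65 against 7.88. Leukocyte markers were higher in 2 of 6, adipocyte markers in 3 of 5 and endothelial markers in 3 of 5, with sums of 364 to 378 in the CD44-positive arrays and 365 to 405 in the CD44-negative arrays for leukocytes, 148 to 162 in the CD44-positive arrays and 149 to 154 in the CD44-negative arrays for adipocytes, and 173 to 199 in the CD44-positive arrays and 184 to 189 in the CD44-negative arrays for endothelium. The part of these markers in the CNR1 and PLAAT3 differences was not tested.

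The other receptor genes did not separate the sorts. CNR2, which encodes the CB2 receptor known mainly from immune cells, had 1 probe set and read 5.65, 5.89 and 5.79 in the CD44-positive arrays, against 5.77, 5.48 and 5.74 in the CD44-negative arrays. The groups overlapped, and the difference was 0.11 (95% interval -0.15 to 0.38). Both probe sets of GPR55 were dim, between 3.72 and 4.44 on all arrays, with differences of 0.072 (95% interval -0.19 to 0.33) and -0.13 (95% interval -0.42 to 0.17). Detection calls were not used here, so whether GPR55 lay above background was not determined.

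Among the enzymes, PLAAT3 stood out on 1 of its 2 probe sets. Probe set 209581_at read 6.41, 6.27 and 6.03 in the CD44-positive arrays, against 5.40, 5.39 and 5.59 in the CD44-negative arrays. All CD44-positive arrays lay above all CD44-negative ones, and replicate 3 again showed the narrowest gap. The levels were 6.24 ± 0.19 and 5.46 ± 0.11 (log2, SD, n = 3 each), a difference of 0.78 ± 0.12 (SE; 95% interval 0.50 to 1.06), or 1.72-fold, with 1.01, 0.88 and 0.45 in the same-numbered pairs 1, 2 and 3. With the replicate number as a block, the 95% interval of this difference was 0.51 to 1.05. Probe set 235110_at, at nearly the same mean over the 6 arrays, read 5.62, 5.88 and 5.94 in the CD44-positive arrays, against 5.92, 5.81 and 5.85 in the CD44-negative arrays. There the groups overlapped, with a difference of -0.046 (95% interval -0.30 to 0.20). The PLAAT3 difference therefore rests on a single probe set.

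The PLAAT family has further members, which were read from a list of pathway genes. PLAAT1, an acyltransferase of the same family, read 7.89, 7.39 and 7.35 in the CD44-positive arrays, against 7.29, 6.27 and 7.07 in the CD44-negative arrays. The groups were separate, though the CD44-negative arrays spread widely and the difference of 0.66 ± 0.26 (SE; 95% interval 0.081 to 1.25) did not pass limma's test (adjusted p = 1.00). PLAAT4, a retinoid-inducible family member, read 4.88, 4.88 and 4.88 in the CD44-positive arrays, against 5.04, 5.15 and 5.05 in the CD44-negative arrays, with all CD44-positive arrays lower, pair differences of -0.15, -0.27 and -0.17 and a difference of -0.19 (95% interval -0.40 to 0.0058) (limma, adjusted p = 1.00). PLAAT2 and PLAAT5 overlapped between the sorts.

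**Figure D2:**
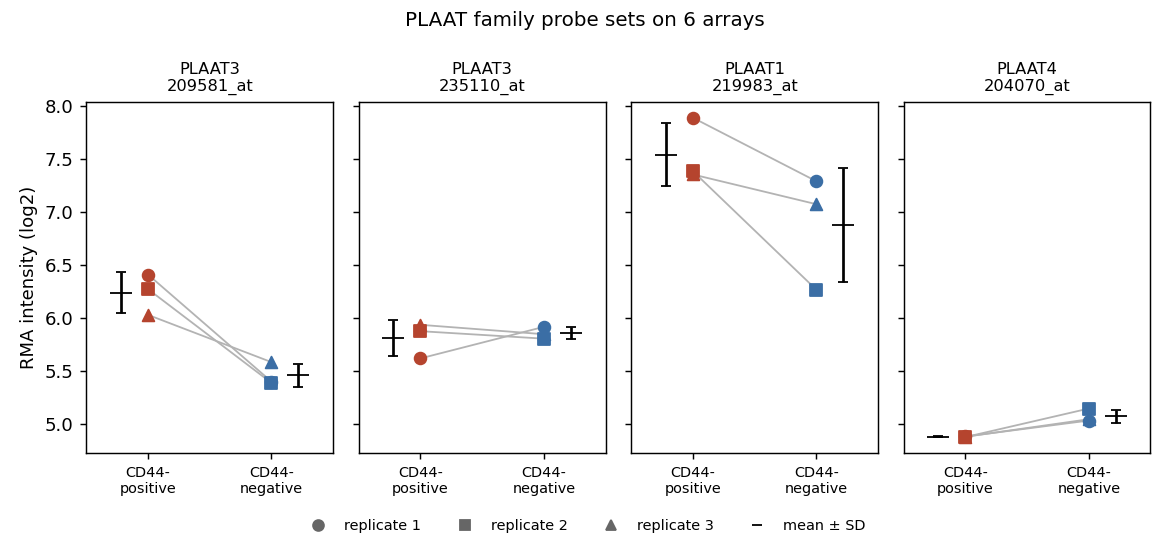
RMA intensity (log2) of both PLAAT3 probe sets and of the brightest probe sets of PLAAT1 and PLAAT4, with CD44-positive arrays left of CD44-negative arrays, grey lines joining the same replicate number, and bars for mean ± SD (n = 3). PLAAT3 is higher in the CD44-positive arrays on 209581_at only, PLAAT1 is higher and PLAAT4 lower.

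NAPEPLD, the enzyme that cuts the anandamide precursor, had 5 probe sets with differences from -0.16 to 0.17. The brightest, 226041_at, read 5.97, 6.12 and 5.99 in the CD44-positive arrays, against 6.07, 6.04 and 6.08 in the CD44-negative arrays. These 6 values lie within 0.15 of one another, and the difference was -0.038 (95% interval -0.24 to 0.17). On 238722_x_at, which may bind other transcripts, the arrays read 6.07, 5.99 and 6.05 in the CD44-positive arrays, against 5.96, 5.89 and 5.83 in the CD44-negative arrays. The groups did not overlap there, but by a small margin, with a difference of 0.14 (95% interval -0.061 to 0.35). The remaining 3 overlapped, and their signs were mixed.

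The lipases that make arachidonoylglycerol overlapped between the sorts on every probe set. DAGLA, the isoform known for its role at synapses in mice, had 1 probe set at 5.67 ± 0.11 and 5.64 ± 0.015 (log2, SD, n = 3 each), a difference of 0.031 (95% interval -0.19 to 0.25). DAGLB, the isoform known from mouse macrophages and liver, was well above the dim limit on all 4 of its probe sets. On the brightest, 225832_s_at, it read 7.45, 7.35 and 7.02 in the CD44-positive arrays, against 7.37, 7.28 and 7.07 in the CD44-negative arrays. The groups overlapped, with a difference of 0.034 (95% interval -0.28 to 0.34). On 225833_at, the most variable, the arrays read 7.37, 7.06 and 6.58 in the CD44-positive arrays, against 7.29, 7.22 and 6.92 in the CD44-negative arrays, and the difference was -0.14 (95% interval -0.58 to 0.30). The other probe sets differed by -0.064 and -0.035, with overlap.

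The enzymes that end the signal overlapped between the sorts as well. FAAH, the serine hydrolase that degrades anandamide, had 1 probe set, which read 6.75, 6.84 and 7.03 in the CD44-positive arrays, against 6.79, 6.58 and 6.95 in the CD44-negative arrays. Its difference was 0.10 (95% interval -0.18 to 0.39). MGLL, the main hydrolase of arachidonoylglycerol in mouse brain, read 5.88, 5.71 and 5.68 in the CD44-positive arrays, against 5.92, 5.63 and 5.79 in the CD44-negative arrays on 211026_s_at. The differences of its 2 probe sets were -0.023 (95% interval -0.27 to 0.23) and -0.15 (95% interval -0.43 to 0.14). ABHD6, a membrane hydrolase with the same substrate, had 3 clearly measured probe sets and 1 dim one. On 221552_at it read 7.51, 7.53 and 7.27 in the CD44-positive arrays, against 7.49, 7.51 and 7.07 in the CD44-negative arrays, a difference of 0.078 (95% interval -0.24 to 0.40). Probe sets 45288_at and 221679_s_at differed by -0.0047 (95% interval -0.36 to 0.35) and -0.13 (95% interval -0.55 to 0.28), and the dim 221678_at by 0.15.

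Across the 26 probe sets 14 were higher in the CD44-positive cells, with a median difference of 0.026 beside -0.00051 over all probe sets. In 5 of them (3 of CNR1, 1 of PLAAT3 and 1 of NAPEPLD) every CD44-positive array lay above every CD44-negative one, and in none did every one lie below. Over all probe sets 3.41% were separate in the first way and 3.32% in the second, 6.73% in either direction. No member passed limma's test at an adjusted p under 0.05 (0 of 26, with 4 at an unadjusted p under 0.05, beside 1281 of all 54613), where 0.00916% of all probe sets passed. With the replicate number as a block the count was again 0 of 26, where 0.0513% of all passed. Without the CD44-positive array of replicate 3 it was 1 of 26, CNR1 213436_at. Since the members were chosen with this contrast known, nothing is read from these counts.

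**Figure D3:**
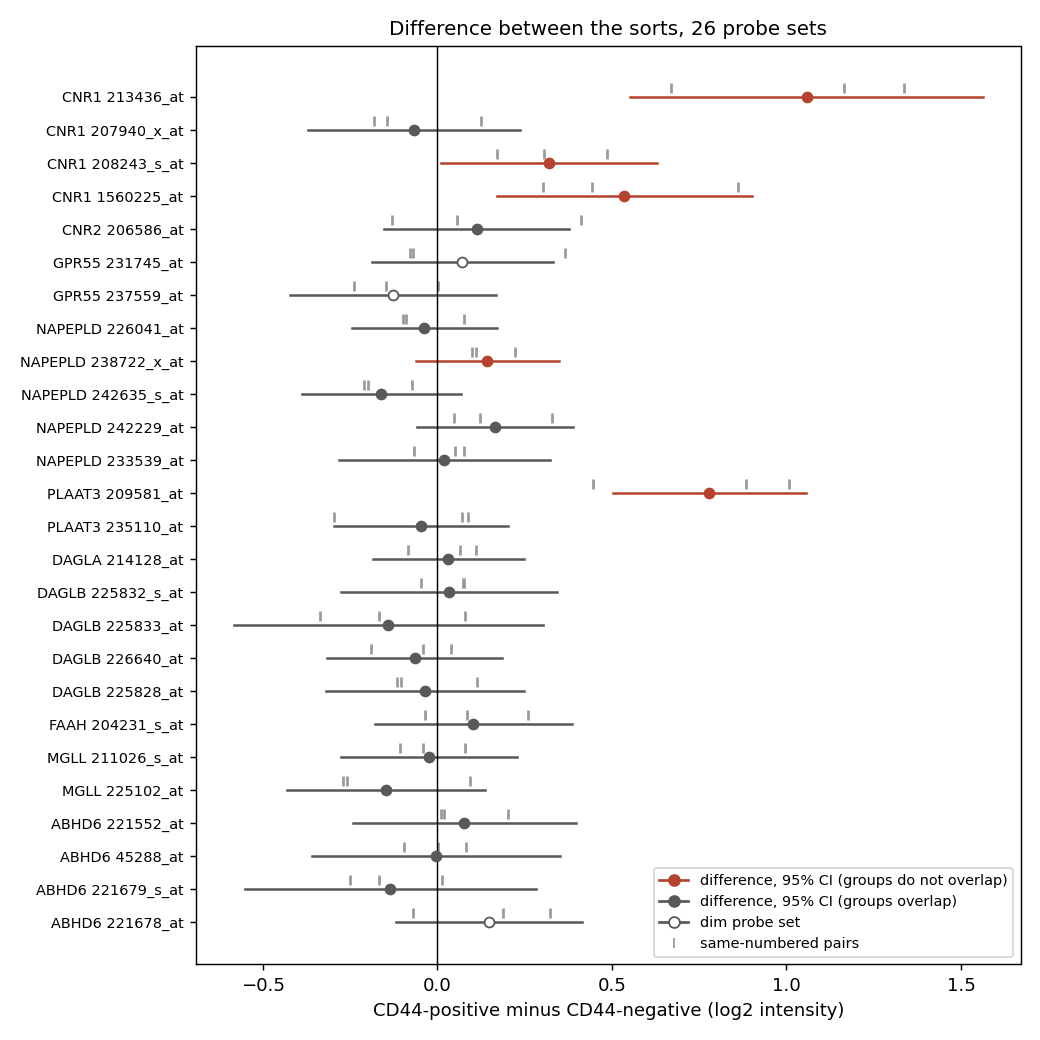
Difference between CD44-positive and CD44-negative arrays (log2 intensity) for the 26 probe sets, with 95% intervals from limma's fit, open circles for dim probe sets and grey ticks for the 3 same-numbered pairs. CNR1 213436_at at 1.06 and PLAAT3 209581_at at 0.78 lie farthest to the right, and most of the other intervals cross 0.

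The rest of the pathway was read from 4 gene lists with 35 genes, of which 29 had a probe set of their own and 22 were not dim. Each gene is represented by its brightest probe set. None of the 29 passed limma's test with or without the replicate block (0 of 29, with 1, PLAAT1, at an unadjusted p under 0.05), where 0.0101% of genes passed without the block and 0.0506% with it. The groups were separate upwards in 3 genes and downwards in 1, beside 3.23% and 3.02% of all genes. With the block the 95% interval lay clear of 0 in 3 of the 29 before any adjustment, PLAAT1 (0.33 to 1.00), PLAAT4 (-0.38 to -0.0068) and GNAO1 (0.0068 to 0.38). By the same criterion, an unadjusted p under 0.05 in limma's fit with the block, 3497 of all 54613 probe sets stood out. Of 11 other enzymes 5 were higher, with a median of -0.026, and after PLAAT1 and PLAAT4 the hydrolase gene FAAH2 had the largest difference, -0.13 (95% interval -0.51 to 0.25). Of 4 lipid carriers 2 were higher, with a median of 0.027, and FABP5, which ferries anandamide inside cells, stood at a high level of 12.61 ± 0.031 and 12.74 ± 0.15 (log2, SD, n = 3 each), a difference of -0.13 (95% interval -0.36 to 0.11). FABP1, the other carrier that was not dim, differed by 0.059.

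Other receptors of these lipids were higher in 4 of 4 genes, with a median of 0.086 beside -0.00082 over all genes. For this list and the next, 49.7% of all genes were higher. The median size of a difference, sign left out, was 0.069 over all probe sets. It is not a like measure for the list medians, which keep the sign. Whether either list departs from other genes was not tested. PPARA, a nuclear receptor for fatty acid amides, differed by 0.21 (95% interval -0.11 to 0.54), PPARG by 0.11 and PPARD by 0.013. GPR18 was dim. Genes of CB1 coupling were higher in 9 of 10, with a median of 0.072, and the groups were separate in GRK2 and GNAI3 by small margins. GRK3, a kinase that desensitises receptors, differed by 0.21 (95% interval -0.069 to 0.49). GNAO1, a G-protein subunit of neurons and endocrine cells, differed by 0.19 (95% interval -0.095 to 0.48), with 0.13, 0.22 and 0.23 in pairs 1, 2 and 3, and GNAI1, an inhibitory G-protein subunit that CB1 can use, stood at 10.28 and 10.19. The CB1-binding protein genes CNRIP1, SGIP1 and GPRASP1 were all dim.

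A measure that the choice of genes did not use is the replicate number, which both sorts share. DAGLB was highest in replicate 1 in both sorts on 4 of 4 probe sets and lowest in replicate 3 in both sorts on 3 of 4. On 225833_at the means of the same-numbered arrays were 7.33, 7.14 and 6.75 for replicates 1, 2 and 3, a range of 0.58. ABHD6 was lowest in replicate 3 in both sorts on its 3 measured probe sets, with means of 7.23, 7.10 and 6.68 on 221679_s_at and 7.50, 7.33 and 7.04 on 45288_at. CNR1 was lowest in replicate 3 in both sorts on 3 of 4 probe sets, at 6.58, 6.70 and 6.08 on 213436_at. FAAH went the other way and was highest in replicate 3, at 6.77, 6.71 and 6.99. The share of all probe sets with such an order in both sorts is not given here. Arrays of equal number also deviated together over all probe sets that were not dim (r = 0.473, 0.624 and 0.629). These orders are thus not shown to be particular to these genes.

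In limma's F test of the replicate number, with CD44 status in the fit and adjustment over all probe sets, 0 of 26 passed, where 4.16% of all probe sets did. At an unadjusted p under 0.05 there were 9 of 26 (34.6%), beside 22.6% of all. The smallest adjusted p values (limma) were 0.0536 for ABHD6 221679_s_at, 0.0673 for DAGLB 225833_at, 0.0816 for ABHD6 45288_at and 0.101 for CNR1 213436_at. With a variance trend and robust moderation these 4 passed, with adjusted p from 0.0106 to 0.0236 (limma), within a range of 0.0106 to 0.43 over the 4 probe sets and all alternatives. When 1 array was left out, DAGLB 225833_at passed without CD44-negative replicate 1 and CNR1 213436_at without CD44-negative replicate 3. The labels do not say what the replicate numbers stand for.

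**Figure D4:**
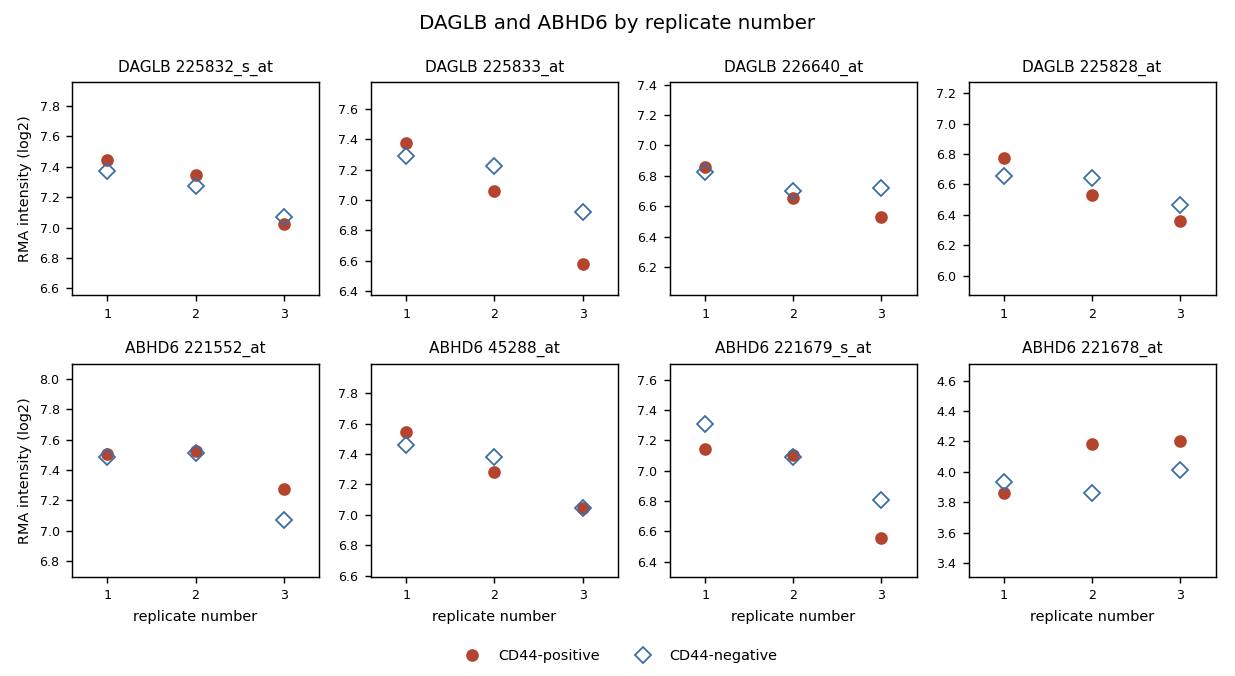
RMA intensity (log2) of the 4 DAGLB and 4 ABHD6 probe sets against replicate number, with filled circles for CD44-positive and open diamonds for CD44-negative arrays, on axes of equal height. Replicate 3 lies lowest in both sorts on all but DAGLB 226640_at and ABHD6 221678_at.

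The genes whose pattern over the 6 arrays was most like that of CNR1 on 213436_at were sought among 941 probe sets that were not dim and ranged over at least 1 on the log2 scale. They were CMPK2, a mitochondrial nucleotide kinase (Pearson r = 0.983), SUSD4, a complement regulator (0.979), STMN3, a microtubule regulator (0.978), CD44 (0.976) and FSCN1, an actin-bundling protein (0.971). CMPK2 read 6.39, 6.58 and 5.52 in the CD44-positive arrays, against 4.61, 5.32 and 4.55 in the CD44-negative arrays, and like CNR1 it was lowest in replicate 3 of the CD44-positive group. SUSD4 read 6.54, 6.58 and 5.72 in the CD44-positive arrays, against 5.49, 5.80 and 5.23 in the CD44-negative arrays. For PLAAT3 on 209581_at they were TNFSF10, the death ligand TRAIL (r = 0.963), CD44 (0.962), GXYLT2, a xylosyltransferase (0.956), SNX7, a sorting nexin (0.948), and HOXC9, a homeobox factor (0.942), among 942 probe sets. TNFSF10 read 5.77, 5.94 and 5.63 in the CD44-positive arrays, against 4.14, 4.48 and 4.56 in the CD44-negative arrays. CNR1 and PLAAT3 correlated with each other at 0.918. The 6 arrays fall into 2 sorts, so any gene that separates them gives a high r, and these values describe the 6 arrays only.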

How the data were processed

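The arrays were Affymetrix ones that read biotin-labelled RNA of the sorted cells, per the labels' protocols. The authors deposited intensity values on a linear scale, to which RMA (which corrects background, equalises the distributions and sums probes into probe sets) had been applied, per the submitters' processing notes. Software and version are not given in the sources used here. RMA compresses differences near background. The number of arrays, 3 in each group, limits the precision.

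Log2 was taken with no pseudocount, and 62 control probe sets were left out of 54675. By the platform annotation 41091 probe sets had a single gene, 1801 had several and 11721 had none. Of the first, 41037 matched a RefSeq gene ID and took the RefSeq symbol, whether or not it differed. All 54613 probe sets entered a limma fit (version 3.58.1 under R 4.3.3, moderated by eBayes). Tests were two-sided at an adjusted p (Benjamini-Hochberg, over all of them) under 0.05. The replicate number was tested in a fit that also held CD44 status. Over 38229 probe sets that were not dim, arrays of equal number deviated together from their group means (r = 0.473, 0.624 and 0.629) and arrays of unequal number did not (r from -0.444 to -0.0574). Deviations within a group cancel out, so the negative sign of the latter follows on average from the former and adds no separate support. The numbers were therefore treated as pairs for the pair differences, and the replicate block was fitted as an alternative. The main fit held no block, and intervals come from it unless the block is named. The labels do not state a pairing. Levels carry the SD over 3 arrays and differences limma's SE.

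The members and gene lists were chosen with earlier results of these data known. All members were named with every probe set, and in each list any gene past the threshold or else the 3 largest differences among genes that were not dim; others named beside them were chosen after their values were seen. Genes most like CNR1 and PLAAT3 were the 5 with the highest Pearson r. Alternatives were the block, quantile normalization, median centring, leaving out dim probe sets, 1 probe set per gene, array weights, robust moderation with a variance trend, and leaving out arrays. The fits were first tested on simulated data. Promoters came from RefSeq windows (GRCh38.p14). Tables and figures were made with Python 3.11.15, pandas 2.3.3 and matplotlib 3.10.9.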

Additional observations from a re-analysis of the deposited data

How the results depend on the processing

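The difference of CNR1 on 213436_at stayed between 0.91 and 1.34 when 1 array was left out, and that of PLAAT3 on 209581_at between 0.69 and 0.88. With the replicate block and 1 same-numbered pair left out, which was added after the data were seen, they were 0.92 to 1.25 and 0.66 to 0.95. The highest CNR1 value came without CD44-positive replicate 3, and the highest values with the block without pair 3. No member difference that had separate groups changed sign in any alternative run. Over all probe sets 5 passed the CD44 contrast, 28 with the replicate block, 1 without dim probe sets, 0 with 1 probe set per gene, 0 with a variance trend and 0 to 10 when 1 array was left out (0, 1 and 8 without CD44-positive replicates 1, 2 and 3, and 1, 10 and 0 without CD44-negative replicates 1, 2 and 3). With the block and a pair left out 25, 87 and 85 passed without pairs 1, 2 and 3. The members passing were 0 under all of these except 1, CNR1 213436_at, without CD44-positive replicate 3. With the block and a pair left out they were 0 without pair 1, 1 without pair 2 (CNR1) and 2 without pair 3 (CNR1 and PLAAT3). The block alone changed no call of a member or a list gene. The list genes passing were 0 in each alternative run for them. In the test of the replicate number 2272 probe sets passed, 1127 with 1 probe set per gene, 6756 with a variance trend and 1064 to 2674 when 1 array was left out, the lowest without CD44-positive replicate 3. Of the members 0 passed, but 1 with median centring (ABHD6 221679_s_at), 2 without dim probe sets, 4 with a variance trend and 0 to 1 when 1 array was left out (DAGLB 225833_at without CD44-negative replicate 1 and CNR1 213436_at without CD44-negative replicate 3). The causes were not tested. Dim probe sets, such as those of GPR55, limit what can be seen of low genes.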
